A study of Caenorhabditis elegans with 8 samples.

Results

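Small RNAs that match 4 Caenorhabditis elegans genes are described here, out of 1937 genes with deposited counts. The genes are bath-45 (F29C12.5), bath-13 (F40B1.1), C38D9.2 and F37D6.3, and they were taken by name from the gene column of the count table because they had been listed as targets of the worm-specific Argonautes (WAGOs) of the germline. The list was compiled from general knowledge, with earlier results of these data known and without a check against published WAGO targets. The counts do not record which Argonaute held a small RNA, so they cannot test whether these genes are WAGO targets. Small RNAs against a gene are here those counted to it, and the strand they matched was not given in the sources used here. All 4 genes passed the filter on low counts.

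The study compared small RNAs of whole young adult worms of the wild-type strain N2 and of rde-12(hj41), a mutant of the DEAD-box helicase RDE-12. It holds 8 libraries in 4 groups, of which the 4 libraries from worms on the bacterial food OP50 are used here, 2 for each genotype. Worms grew for 50 h at 20 °C from synchronised larvae, and no group on OP50 ate a double-stranded RNA trigger. Each library comes from a large pool of whole animals, which the labels call separate biological samples, and no tissue was isolated. A lower count can therefore come from fewer cells that make a small RNA or from less of it per cell, and these cannot be told apart.

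In C. elegans, an initial small RNA can lead an RNA-dependent RNA polymerase to copy the targeted transcript into many secondary small RNAs, which carry a triphosphate at their 5′ end. WAGOs bind these secondary small RNAs and silence the matching genes. In the germline this system keeps a set of genes and transposons silent over generations. Another set of transcripts is targeted through the Argonaute ERGO-1. The libraries were treated with TAP, an enzyme that makes triphosphate ends fit for adapter ligation, so that such secondary small RNAs could be sequenced.

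Both bath genes encode proteins with a MATH domain, which binds other proteins, and a BTB domain, through which such proteins can join ubiquitin ligases. C38D9.2 and F37D6.3 are annotated as protein-coding in RefSeq and carry no gene name there beyond their sequence name. Both bath genes lie on chromosome II, C38D9.2 on chromosome V and F37D6.3 on chromosome I, and 0 other annotated genes overlap any of them in the RefSeq table. The annotated exons covered 1825 nt in bath-45, 1045 nt in bath-13, 3834 nt in C38D9.2 over its 4 transcripts and 544 nt in F37D6.3. No genome positions are given, since the build used for the counts was not given in the sources used here.

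Small RNAs against all 4 genes were plentiful in wild type and in rde-12 animals alike, and the 95% intervals of the difference reached no further than 0.889-fold or 1.15-fold. None of the 4 genes passed the test, in either direction, whereas 27.7% of all 1931 genes tested did, 13.9% falling and 13.8% rising (edgeR's quasi-likelihood test, Benjamini-Hochberg adjusted p under 0.05). Of the 4, 0 also had an unadjusted p under 0.05, against 39.6% of all genes tested, and 0 were called with DESeq2, against 18.9%. Among the 151 genes with at least the mean level of bath-13, the lowest of the 4, 31.1% were called. Since the 4 genes were chosen with earlier results of these data known, setting them beside these shares is only a description. Levels are given as CPM, that is, counts relative to the total over the tested genes, scaled with TMM factors. Summed over all genes, the N2 libraries held 4270098 and 4382256 counts and the rde-12 libraries 5563151 and 4354715.

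Against bath-45, 47000 and 47423 small RNAs were counted in the N2 libraries and 65145 and 50006 in the rde-12 libraries. On the CPM scale these were 11157 and 10867 in N2 and 11826 and 11171 in rde-12. The higher N2 library and the lower rde-12 library were nearly equal. The log2 change from N2 to rde-12 was 0.06 ± 0.0631 (SE, n = 2 each; edgeR adjusted p = 0.505), a 1.04-fold difference with a 95% interval from 0.951-fold to 1.15-fold.

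Against bath-13, the other MATH and BTB gene of the 4, counts were 6461 and 6490 in N2 and 8085 and 6467 in rde-12. The CPM values were 1534 and 1487 in N2 and 1468 and 1445 in rde-12, so that both rde-12 libraries lay just under both N2 libraries. It was the 1 gene of the 4 with a log2 change below 0, at −0.05 ± 0.0550 (SE, n = 2 each; edgeR adjusted p = 0.518). The 95% interval ran from 0.889-fold to 1.05-fold.

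C38D9.2 had 14814 and 14916 counts in N2 and 20708 and 15858 in rde-12. Its levels were 3517 and 3418 CPM in N2 and 3759 and 3542 CPM in rde-12, close to each other in all 4 libraries. The log2 change was 0.07 ± 0.0588 (SE, n = 2 each; edgeR adjusted p = 0.377), with a 95% interval from 0.966-fold to 1.15-fold. F37D6.3 had 26422 and 28001 counts in N2 and 36907 and 28941 in rde-12. On the CPM scale this gave 6272 and 6417 in N2 and 6700 and 6465 in rde-12, again with the nearest libraries of the genotypes almost level. The log2 change was 0.05 ± 0.0595 (SE, n = 2 each; edgeR adjusted p = 0.547), with a 95% interval from 0.950-fold to 1.13-fold.

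**Figure D1:**
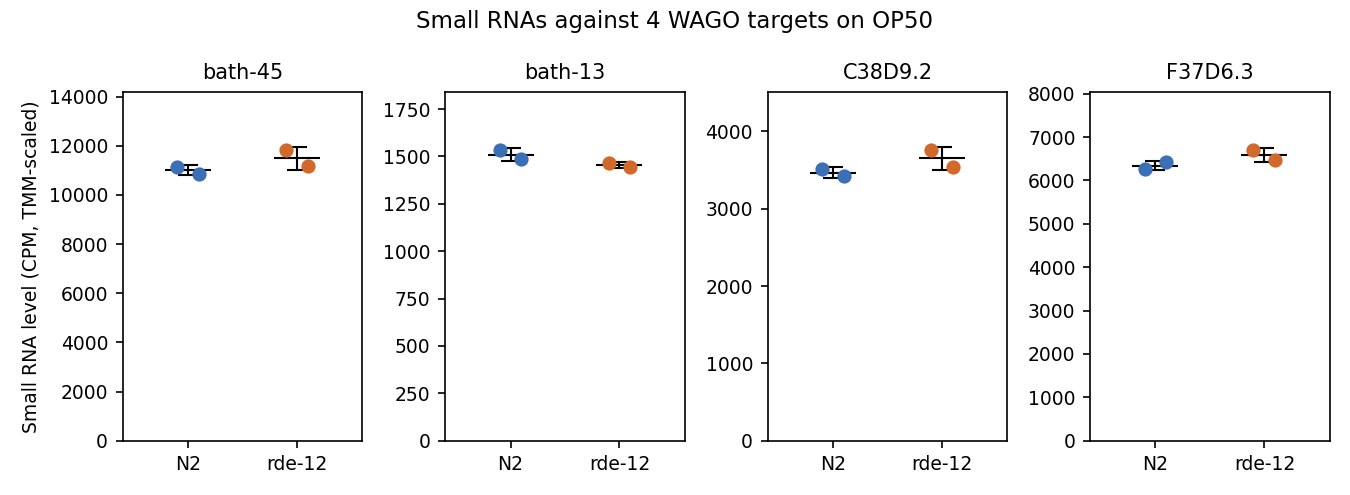
Small RNA level (CPM, scaled with TMM factors; vertical axes start at 0 and differ between panels) of the 4 genes in the 2 N2 and 2 rde-12 libraries on OP50. Points are libraries, and the horizontal line and bar are their mean and SD (n = 2); in each panel the nearest libraries of the genotypes lie close together, for bath-45 at 11157 CPM in N2 and 11171 CPM in rde-12.

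For each of the 4 genes the N2 and rde-12 libraries occupied separate ranges of CPM, as they did for 64.2% of all genes tested, so this separation is common in these data. The intervals exclude a change of 1.25-fold in either direction for each of the 4 genes. Their width draws on the spread of all genes tested, as edgeR pools it, and not on the 4 libraries of a gene alone. On simulated counts for this comparison, the test called 66.0% of genes changed 1.25-fold and 8% of genes changed 1.1-fold. The changed genes were drawn at random over all levels, so these rates are not those of genes as plentiful as the 4. Every simulated gene was also given the same spread between replicates beyond counting noise, a coefficient of variation of 4.06%. Real genes can differ in this spread, so the rates need not hold for them. Log2 changes of the 4 genes had SEs from 0.055 to 0.063, so a change of a few percent was not detectable with 2 libraries a group. The log2 changes of the 4 genes ranged from −0.05 to 0.07 with a median of 0.06, beside a median of −0.02 over all genes tested.

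The same counts can be set against those of bath-45, which restates the levels above and is not a further result. The small RNAs of C38D9.2 and F37D6.3 kept nearly fixed proportions to those of bath-45, while the proportion of bath-13 was somewhat lower in both rde-12 libraries. Such ratios within a library do not depend on its depth or on scaling. C38D9.2 had 0.315 and 0.315 counts per bath-45 count in the N2 libraries and 0.318 and 0.317 in the rde-12 libraries. F37D6.3 had 0.562 and 0.591 per bath-45 count in N2 and 0.567 and 0.579 in rde-12, with the rde-12 values inside the N2 range. For bath-13 the ratio was 0.138 and 0.137 in N2 and 0.124 and 0.129 in rde-12, both lower, at 0.924 of the N2 mean.

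Over these and the following ratio and share, 5 quantities in all, a two-sided exact permutation test cannot go below p = 0.33 with 2 libraries against 2. The exact test gave p = 0.33 for C38D9.2 and bath-13 and p = 1.0 for F37D6.3 (n = 2 each; adjusted over the 5 quantities, 0.417, 0.417 and 1.0). For bath-13 the log2 ratio of −0.11 was −0.14 without rde-12 replicate 2 and −0.08 without rde-12 replicate 1.

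Genes of the ERGO-1 pathway were the contrast in the same libraries. A list of 13 ERGO-1 targets was written with earlier results of these data known. Small RNAs fell against 12 of them and rose against 0 (edgeR adjusted p under 0.05), with a median log2 change of −2.99 over the list. Over all genes tested, 13.9% fell and 13.8% rose. K02E2.6, a heavily targeted gene of this pathway, had 0.441 and 0.432 counts per bath-45 count in N2. In rde-12 it had 0.0228 and 0.0221, a 19.5-fold lower ratio (two-sided exact permutation p = 0.33, the smallest possible with n = 2 each; 0.417 adjusted over the 5 quantities). Both rde-12 libraries lay far below both N2 libraries, and since K02E2.6 was listed with such results known and the test could give no smaller p, this ratio is a description. ZK402.3, Y17D7B.4 and W04B5.1, with the next highest N2 levels in CPM of that list, had log2 changes of −2.99, −3.996 and −2.79. C18D4.6 was the listed gene that did not pass the test, at a log2 change of 0.06 ± 0.0567 (SE; edgeR adjusted p = 0.482).

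Together the 4 genes held 2.214% ± 0.00572 (SD, n = 2) of all deposited gene counts in N2 and 2.339% ± 0.0187 in rde-12, a share 1.06-fold higher in rde-12 (two-sided exact permutation p = 0.33; 0.417 adjusted). The log2 ratio of this share was 0.08, and 0.05 when the ERGO-1 list was left out of the total. The deposited genes are a selection, so these are not shares of whole libraries.

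**Figure D2:**
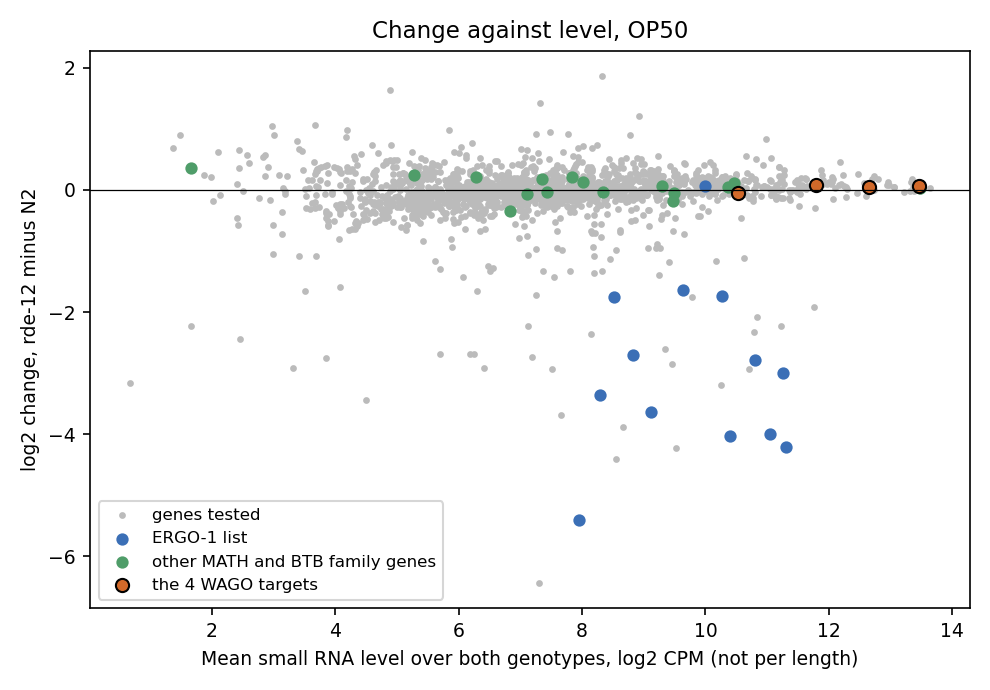
Log2 change from N2 to rde-12 (vertical axis) against the mean small RNA level over both genotypes in log2 CPM (horizontal axis, not divided by gene length) for the 1931 genes tested on OP50. The 4 genes described here sit near 0 at high level, between −0.05 and 0.07, whereas 12 of the 13 genes of the ERGO-1 list lie well below 0.

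The 4 genes differed from each other in level by more than the spread between libraries. Per kilobase of annotated exon, F37D6.3 had 11660 ± 188 CPM in N2 (mean ± SD, n = 2) and 12100 ± 305 in rde-12. This short gene ranked 2 or 3 among the 1896 genes with a known exon length in each of the 4 libraries, but from 6 to 10 per kilobase of coding sequence. For bath-45 the level per kilobase of exon was 6034 ± 112 CPM in N2 and 6300 ± 254 in rde-12, with ranks from 17 to 19. Those of bath-13 were 1445 ± 31.5 and 1393 ± 15.6, with ranks from 124 to 128. C38D9.2 had 904 ± 18.2 in N2 and 952 ± 40.0 in rde-12, with ranks from 174 to 197. The median over all genes was 93.97 CPM per kilobase of exon in N2, so each of the 4 genes stood well above it.

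The ranks, and the order of the lower 2 genes, depended on which length was used. C38D9.2 has long annotated untranslated exons, and its coding length is 1479 nt against 903 nt for bath-13. Per kilobase of coding sequence, C38D9.2 held 2344 ± 47.09 CPM in N2 (mean ± SD, n = 2) and bath-13 held 1673 ± 36.4, the reverse of their order per kilobase of exon. F37D6.3 and bath-45 stayed the highest and next highest of the 4, at 12510 ± 202 and 7843 ± 146 CPM per kilobase of coding sequence in N2. Among the 1803 genes with a known coding length, bath-45 ranked from 14 to 21 over the 4 libraries. On that scale C38D9.2 ranked from 76 to 89 and bath-13 from 124 to 131. Where along these genes the small RNAs matched is not given in the count table.

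The MATH and BTB genes form a large family in C. elegans, and 18 of its 114 named genes in RefSeq had counts. Small RNAs fell against 2 of the 18 and rose against 1 in rde-12 (16.7% called, against 27.7% of all genes tested), with a median log2 change of 0.05. Both bath-45 and bath-13 are among the 15 genes not called. Another member, bath-20 (B0047.1), had counts much like those of bath-45, with 48461 and 48089 in N2 and 64825 and 49807 in rde-12. Its level was 11262 ± 342 CPM in N2 and 11447 ± 454 CPM in rde-12 (mean ± SD, n = 2; log2 change 0.02 ± 0.0637 (SE), edgeR adjusted p = 0.815). Together bath-45 and bath-20 held 74.1% ± 0.250 of the counts of the family in N2 (SD, n = 2), and 74.6% ± 0.328 in rde-12.

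The genes of the family that were called changed little. Small RNAs against bath-34 (W02A11.5), named because it was called, fell from 128 ± 6.50 to 101 ± 5.51 CPM (mean ± SD, n = 2; log2 change −0.35 ± 0.0807 (SE), edgeR adjusted p = 0.00389). Those against math-44 (Y16E11A.1) went from 757 ± 27.5 to 665 ± 22.5 CPM and also fell (edgeR adjusted p = 0.0245; log2 change −0.19). Small RNAs against bath-10 (Y49F6C.4) rose, with 212 ± 2.16 CPM in N2 against 246 ± 13.9 (edgeR adjusted p = 0.0195; log2 change 0.21). The other family genes with many counts were bath-23 (log2 change 0.12), math-1 (0.04), bath-29 (−0.05), bath-24 (0.07), bath-1 (−0.03), bath-15 (0.13) and bath-21 (−0.03), and they did not pass the test. Other scalings moved some of them: bath-23 rose with library totals (edgeR adjusted p = 0.0230) and with upper-quartile factors (0.0358), and bath-15 rose with upper-quartile factors (0.0298). With upper-quartile factors bath-1 and bath-21 turned to 0.02.

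Not all of these calls were stable. The call for bath-34 held with other scalings, with DESeq2 (adjusted p = 0.0378) and with the replicate block (edgeR adjusted p = 0.0236). Without N2 replicate 1 the family had 0 falls, with adjusted p = 0.0745 for bath-34 and 0.154 for math-44. Leaving out rde-12 replicate 1 or 2 ended the call for math-44 (edgeR adjusted p = 0.0555 and 0.0725), as did DESeq2 (adjusted p = 0.0632). The call for bath-10 ended without rde-12 replicate 1 (edgeR adjusted p = 0.168) and with DESeq2 (adjusted p = 0.0923). With upper-quartile factors 5 genes of the family rose and 1 fell. How reads that match several members of this family were counted was not given in the sources used here, so the separate values of its genes are uncertain.

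**Figure D3:**
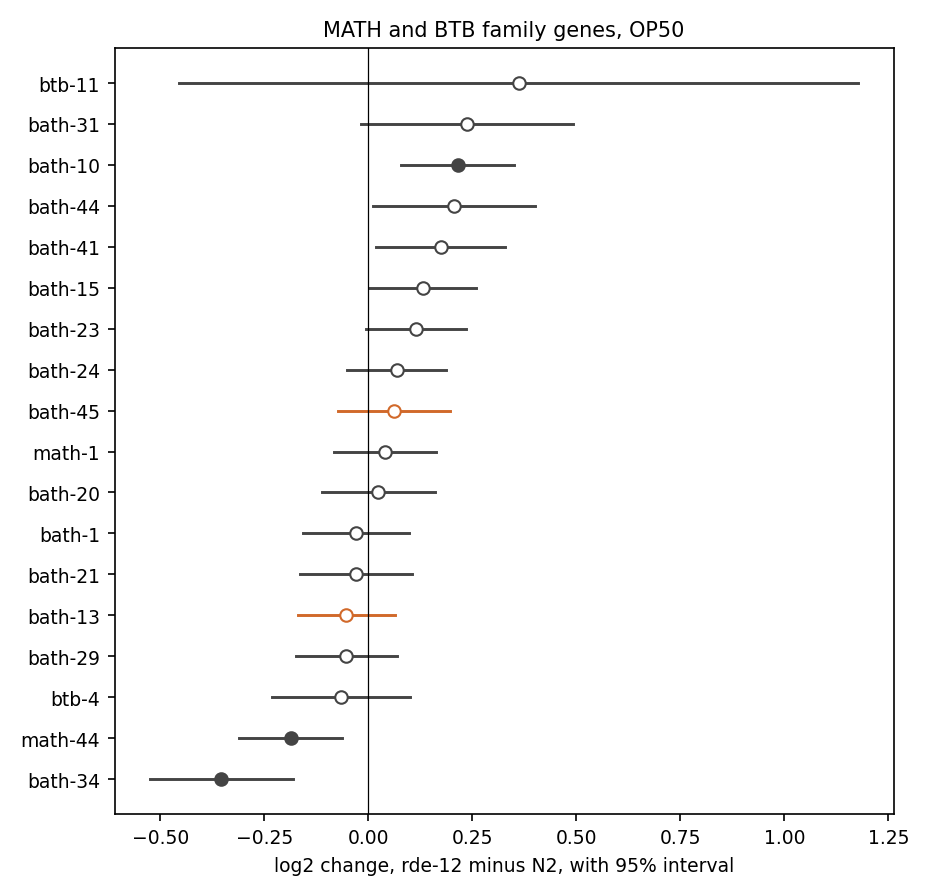
Log2 change from N2 to rde-12 on OP50 for the 18 measured MATH and BTB family genes, with 95% intervals (horizontal axis). Filled circles passed the test (bath-34, math-44 and bath-10), open circles did not, and bath-45 and bath-13 are in orange near 0.

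Some genes of the small RNA machinery are themselves matched by small RNAs, and those with counts here changed little in rde-12. Counts were held for 10 of 58 listed small RNA pathway genes and 6 of 18 listed germ granule genes. Of 16 measured genes in a list of small RNA pathway and germ granule genes, small RNAs fell against 1 and rose against 0, beside 27.7% called over all genes tested. That list, too, was written with earlier results of these data known. The gene that fell was alg-4 (ZK757.3), an Argonaute of sperm development, named because it was called, from 69.4 ± 7.34 to 55.1 ± 2.38 CPM (mean ± SD, n = 2; log2 change −0.33 ± 0.106 (SE), edgeR adjusted p = 0.0282). It was no longer called when N2 replicate 1 (edgeR adjusted p = 0.311) or rde-12 replicate 1 (0.147) was left out, with DESeq2 (0.180), with library totals (0.0618), with upper-quartile factors (0.0707) and with the replicate block (0.0730).

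None of the 3 measured genes for WAGO proteins passed the test. Their log2 changes were 0.02 for ppw-1 and for wago-2 and 0.05 for sago-2, each turning sign when 1 library was left out. The Piwi-type gene prg-2 (0.01), the RNA-dependent RNA polymerase gene rrf-2 (−0.09), the nuclear RNAi gene nrde-1 (−0.02) and simr-1 (−0.05), which acts in small RNA production, did not pass either. With upper-quartile factors nrde-1 turned to 0.03 and simr-1 to 0.00. Among germ granule genes, log2 changes were 0.15 for the Vasa-like helicase gene glh-1, 0.10 for glh-2, 0.12 for deps-1, 0.08 for pgl-3 and −0.16 for meg-4. With upper-quartile factors 2 genes of the list rose, glh-1 (adjusted p = 0.0179) and deps-1 (0.0496), and glh-1 also rose with library totals (0.0173) and without rde-12 replicate 2 (0.0265). Without N2 replicate 2, deps-1 rose (edgeR adjusted p = 0.0493).

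**Figure D4:**
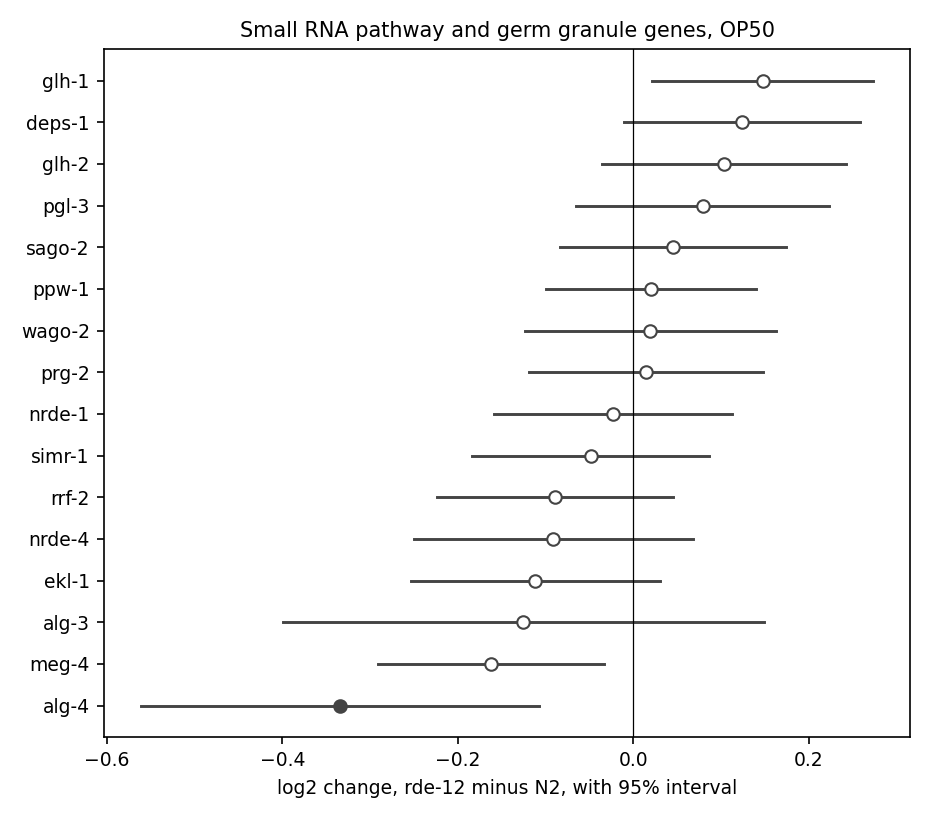
Log2 change from N2 to rde-12 on OP50 for the 16 measured small RNA pathway and germ granule genes, with 95% intervals (horizontal axis). The filled circle is alg-4, which fell with a log2 change of −0.33; open circles did not pass the test.

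For each of the 4 genes, the genes with the most similar values over the libraries were also looked up. Likeness was the root mean square distance between log2 CPM values over the 4 libraries, and the 3 nearest genes were taken for each. The libraries are of both genotypes, so near genes are alike in level and also in change. For bath-45 they were bath-20, at a distance of 0.0247, T01A4.3 (0.0311) and Y71A12B.10 (0.0615). The nearest genes to bath-13 were the F-box gene fbxb-85 (R17.1; 0.0400), Y45F10C.6 (0.0418) and T07D3.3 (0.0437). Those nearest to C38D9.2 were K08B4.5 (0.0273), the polyketide synthase gene pks-1 (C41A3.1; 0.0432) and the F-box gene fbxb-14 (W08F4.9; 0.0490).

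For F37D6.3 the nearest were the F-box gene fbxa-192 (F57G4.8; 0.0342), faah-5 (Y56A3A.5; 0.0748) and saeg-2 (T23G5.6; 0.0748). Of these 12 genes, saeg-2 rose in rde-12 (log2 change 0.18 ± 0.0599 (SE, n = 2 each), edgeR adjusted p = 0.0325). The other 11 did not pass the test, with log2 changes from −0.07 for fbxb-85 to 0.13 for pks-1. Since likeness was taken over libraries of both genotypes, around genes that were not called, a near gene had to have a similar log2 change. The number not called was thus largely set by the choice and is not a separate result. The call for saeg-2 did not hold without N2 replicate 1 (edgeR adjusted p = 0.131), N2 replicate 2 (0.302) or rde-12 replicate 1 (0.134).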

How the data were processed

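The authors deposited raw whole-number counts per gene for the OP50 libraries, as the file headers name them. Per the labels' protocols, gel-purified RNA of 20 to 26 nt was TAP-treated and indexed. The submitters' processing notes name TopHat 1.4.1, SAMtools and bedtools. The build, annotation, strand and treatment of reads with several matches were not given in the sources used here. Of 1959 rows, 22 repeat another row with identical values and were counted once.

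The test across genes was that of edgeR 4.0.16 in R 4.3.3 (quasi-likelihood, TMM factors from 0.9865 to 1.028, filterByExpr, which removed 6 genes). Benjamini-Hochberg adjustment ran over 1931 genes, with a threshold of 0.05. Standard errors are the absolute log2 change over the square root of F. The 95% intervals use the t distribution with the fit's total degrees of freedom, which include those edgeR borrows from the other genes. On simulated counts, 95.1% of intervals held the true value, with 4 false calls among 138. The simulation used the same dispersion for all genes, so these rates need not hold for the real counts. Ratios used scipy 1.17.1. DESeq2 1.42.0 was an alternative.

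Names came from RefSeq (WBcel235; 1900 of 1937 IDs matched) and lengths from Ensembl's annotation of that assembly (1902 genes). Chi-square per degree of freedom was 3.50 between N2 replicates, 4.13 between rde-12 replicates and at least 101 between genotypes, so no replicate looked like a repeat deposit. The members and lists were chosen with earlier results of these data known. Named genes are the 4 genes, the 3 nearest to each, up to 12 with the most counts in each other list (called ones added after their values were seen), measured genes within 5 places of a member, and up to 4 of the ERGO-1 list plus the 1 not called. The sel-1 region counts were not analysed here.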

Additional observations from a re-analysis of the deposited data

How the results depend on the processing

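The 4 genes kept their direction and stayed uncalled in all 44 alternative values. The log2 change ranged from 0.03 to 0.11 for bath-45, from −0.075 to −0.0018 for bath-13, from 0.04 to 0.13 for C38D9.2 and from 0.04 to 0.10 for F37D6.3. The lowest adjusted p, 0.0633, was that of C38D9.2 with library totals. For the other named genes 339 of 385 values held, 17 lost and 8 gained a call, and 21 changed sign. Over all genes 268 fell and 267 rose. With library totals 221 fell and 333 rose, with upper-quartile factors 202 and 370, and with DESeq2 157 and 207. With 1 library left out, falls ranged from 175 to 304 and rises from 165 to 308, both lowest without rde-12 replicate 1; the cause was not tested.

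Family falls numbered 1 with upper-quartile factors and 1 with DESeq2, and from 0 to 2 with a library left out. Family rises numbered 2 with library totals, 5 with upper-quartile factors, 0 with DESeq2 and from 0 to 2 with a library left out. Falls in the pathway and germ granule list were 0 with library totals, upper-quartile factors, DESeq2 and the replicate block, and from 0 to 1 with a library left out. Rises there were 1 with library totals, 2 with upper-quartile factors and from 0 to 1 with a library left out. The cause was not tested. The log2 ratio of the share of the 4 genes was 0.096 over all rows as deposited and 0.047 outside the ERGO-1 list. That of bath-13 to bath-45 went from −0.14 to −0.085 when 1 library was left out, and that of F37D6.3 to bath-45 from −0.044 to 0.027.

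Sign changes were all in genes that were not called. With upper-quartile factors they were bath-1 (0.021), bath-21 (0.021), simr-1 (0.0028), nrde-1 (0.028) and gbas-1 (0.0085), and with library totals nrde-1 (0.00084). With a library left out, the log2 change ran from −0.0089 to 0.065 for bath-20, from −0.064 to 0.016 for bath-1, from −0.0046 to 0.053 for ppw-1 and from −0.068 to 0.11 for wago-2. The range was −0.12 to 0.042 for simr-1, −0.0088 to 0.19 for pgl-3, −0.043 to 0.086 for prg-2 and −0.0074 to 0.11 for sago-2. It was −0.065 to 0.022 for nrde-1, −0.32 to 0.15 for spe-18 and −0.11 to 0.044 for gbas-1.

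The replicate numbers are not said to mark a shared day, so they were not taken to pair samples. As a later check, same-numbered libraries did not deviate together (correlation 0.021). With the replicate block 230 genes fell and 243 rose; the log2 changes were 0.06 for bath-45, −0.05 for bath-13, 0.07 for C38D9.2 and 0.05 for F37D6.3, with no call.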

Other observations

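Coding genes next to the 4 genes were looked up among the 1937 genes with counts, which are a selection. The share of all coding genes with counts was not worked out, so the numbers below are not particular to these surroundings. Within 5 coding genes on either side in the RefSeq order, 1 of 10 was measured around bath-45, 2 of 10 around bath-13, 1 of 10 around C38D9.2 and 0 of 10 around F37D6.3. Near bath-45 this was spe-18 (F32A11.3), a sperm gene, at 37.3 ± 2.70 CPM in N2 (mean ± SD, n = 2) and 35.5 ± 7.88 in rde-12. Near bath-13 they were K02F6.7, at 164 ± 5.08 and 177 ± 8.11 CPM, and gbas-1 (F59H5.1), at 99.2 ± 8.08 and 96.3 ± 3.20 CPM. Near C38D9.2 it was ztf-25 (Y6G8.3), a zinc finger gene, at 56.1 ± 2.88 and 46.6 ± 1.41 CPM.

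Per kilobase of exon, the 4 neighbours averaged between 29.6 and 91.7 CPM over all libraries, below the N2 median of 93.97 over all genes. None of the 4 was called with edgeR, and 1, ztf-25, had an unadjusted p under 0.05 (log2 change −0.27 ± 0.106 (SE), edgeR adjusted p = 0.0735). DESeq2 called 0 of the 4. Over all genes tested, 27.7% were called with edgeR, 39.6% had an unadjusted p under 0.05 and 18.9% were called with DESeq2. With 4 genes, these counts do not set the neighbours apart from all genes.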
